A study of Mus musculus with 77 samples.

Results

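The miRNAs described here are the miR-297, miR-466, miR-467 and miR-669 families of the mouse. Members were all probes of an nCounter miRNA panel whose name holds any of these 4 family numbers, with any letter or arm and with a joint probe for several miRNAs counted once. This gave 33 of 566 mouse miRNA probes, of which 4 are joint probes, and together they name 39 miRNAs. The nCounter assay counts fluorescent barcodes bound to single miRNA molecules without amplification. A further 33 probes for viral miRNAs, which have no target in mouse cells, were counted in the same libraries and served as the background.

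Most hairpins of these families lie in a large cluster inside an intron of Sfmbt2, an imprinted gene that encodes a Polycomb group protein. The cluster is found in rodents, is known for its expression in placenta and embryonic stem cells, and its miRNAs carry long runs of alternating bases. For most of its members no role in immune or neural cells is established. In the RefSeq gene list for the mouse (GRCm38.p6), 72 of 82 hairpin genes of these families lie inside Sfmbt2 on chromosome 2, and 10 lie elsewhere. No other miRNA gene lies inside Sfmbt2 in that table (0). Going by those positions, 25 of the 33 probes name miRNAs from inside Sfmbt2 only, 3 probes name miRNAs from both places, and 5 name miRNAs from other loci only. Those 5 probes (miR-466i, miR-466j, miR-466k, miR-467f and miR-467g) are named for the families but their hairpins are not in the cluster, and they are given separately below.

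The study profiled cells of C57BL/6 mice to set microglia apart from immune and neural cells. The 36 miRNA libraries fall into 2 sets that had been normalised separately, so values were compared only within a set. The immune set held adult microglia isolated from cortex, hippocampus, cerebellum, spinal cord, eye, olfactory bulb and brain (7 libraries), beside macrophages of spleen, gut, heart, liver, lung, muscle and kidney (7 libraries). Further groups were CD11b/Ly6C sorted cells, low and high for Ly6C, of spleen and bone marrow (4 libraries), and NK cells, B cells, CD4 T cells and Foxp3 regulatory T cells from spleen (4 libraries). Dendritic cells and neutrophils had 1 library each. The neural set held 2 libraries of each cell type: microglia, red pulp macrophages of the spleen, primary neurons of hippocampus or cortex, and oligodendrocytes and astrocytes of adult mice. No treatment or mutation is named for any of these libraries. The labels do not give the number of animals behind a library, so a p-value here measures the spread between these samples, which may be technical. In the immune set that spread lies between organs, sites or cell subsets rather than between repeats of 1 population.

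Depth was low and differed between groups. Microglia libraries held 2555 to 32277 recovered counts over all probes, macrophages 1741 to 7148, CD11b/Ly6C cells 5283 to 70672 and lymphocytes 15598 to 75642. Neural-set libraries held 3699 to 20545. The viral probes averaged 1.61 to 4.97 counts in the immune libraries and 5.06 to 17.1 counts in the neural libraries. Defining miRNAs followed the labels in part. miR-150 was 488 to 2575 in lymphocytes, but also 273 in neutrophils, over their limit of 24.5. miR-223 was 1762 to 11442 in CD11b/Ly6C cells, but 326 in neutrophils, under the 888 in lung and 406 in spleen macrophages, and 242 in NK cells. miR-338-3p was 547 and 517 in oligodendrocytes, but also over the limit in astrocytes (123 and 100) and neural-set microglia (85 and 103). miR-219, also known from oligodendrocytes, was 106 and 158 there. It was over the limit as well in cortical neurons library 2 (119) and hippocampal neurons library 1 (376). miR-9, known from neural cells in general, was 2849 and 1011 in astrocytes and 905 in hippocampal neurons library 2. Neuronal miR-124 was also over the limit in astrocytes, at 101 and 111 (limits of 58.1 and 69.1). The haematopoietic miR-142-3p lay under the background limit in the macrophages of muscle (11.2), liver (8.53), heart (15.3) and gut (7.68), in the microglia of eye (6.97) and cerebellum (12.8), and in both red pulp macrophage libraries (31 and 24, limits of 113). It also lay under the limit in neural-set microglia library 1 (71, limit of 74.2), but not in library 2 (103, limit of 75.1). miR-126-3p, known from endothelium, was 751 in lung, 572 in liver and 375 in heart macrophages. In the neural set it was 394 and 255 in astrocytes and 124 and 133 in oligodendrocytes. In cortical neurons library 2 and hippocampal neurons library 1 the neuronal miR-124 (30 and 16) and miR-9 (45 and 16) lay under the background limits of 109 and 259. Hippocampal neurons library 1 was also the only neural-set library under 5000 counts.

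Mature sequences were held in RefSeq for 5 of the 39 names, all from hairpins outside Sfmbt2. They are shown because they include miR-467f and miR-466k, the members of this kind with the highest values below, and because they hold repeat-like stretches themselves. They do not show the make-up of the miRNAs from inside Sfmbt2. The capitals mark the seed (bases 2 to 8), the stretch that pairs with target transcripts, and each line runs 5′ to 3′.
miR-466j (chr10:60960802-60960824, plus strand, GRCm38.p6): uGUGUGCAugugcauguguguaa
miR-466k (chr3:85467396-85467418, plus strand, GRCm38.p6): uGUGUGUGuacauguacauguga
miR-467h (chr9:115381898-115381919, plus strand, GRCm38.p6): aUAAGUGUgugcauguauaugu
miR-467f (chr11:69635419-69635439, minus strand, GRCm38.p6): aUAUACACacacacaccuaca
miR-467g (chr5:34732872-34732892, minus strand, GRCm38.p6): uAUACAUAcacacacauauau
These sequences had 5 different seeds, so sharing a family number did not mean sharing a seed among them. U and G made up 73.9% of miR-466j, 69.6% of miR-466k and 68.2% of miR-467h, where the median of 1738 mouse mature miRNAs was 54.5%. A and C made up 85.7% of miR-467f and 71.4% of miR-467g. Of all mature miRNAs 1.55% reached 75% A and C, as did miR-467f but not miR-467g. A share of 75% U and G was reached by 5.12% of all mature miRNAs and by none of these sequences.

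The members lay above background more often than the viral probes in most libraries, and slightly more often than other mouse miRNAs. The background limit of a library was the mean plus 2 SD of its 33 viral probes. In the immune set 207 of 792 member values (26.1%) were above it, against 19.4% of the values of the 533 other mouse miRNA probes and 5.56% of viral values (19.8% of all mouse miRNA values). In the neural set 64 of 396 member values (16.2%) were above it, against 10.9% for other mouse miRNAs and 4.04% for viral probes (11.2% of all mouse miRNA values). The members' share exceeded the viral share in 24 of 24 immune libraries and in 11 of 12 neural libraries, the exception being hippocampal neurons library 1, with 0 members above its limit. It exceeded the share of the other mouse miRNAs in 18 of 24 immune and 8 of 12 neural libraries. These shares carry no test, because probes of 1 library are not replicates.

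**Figure D1:**
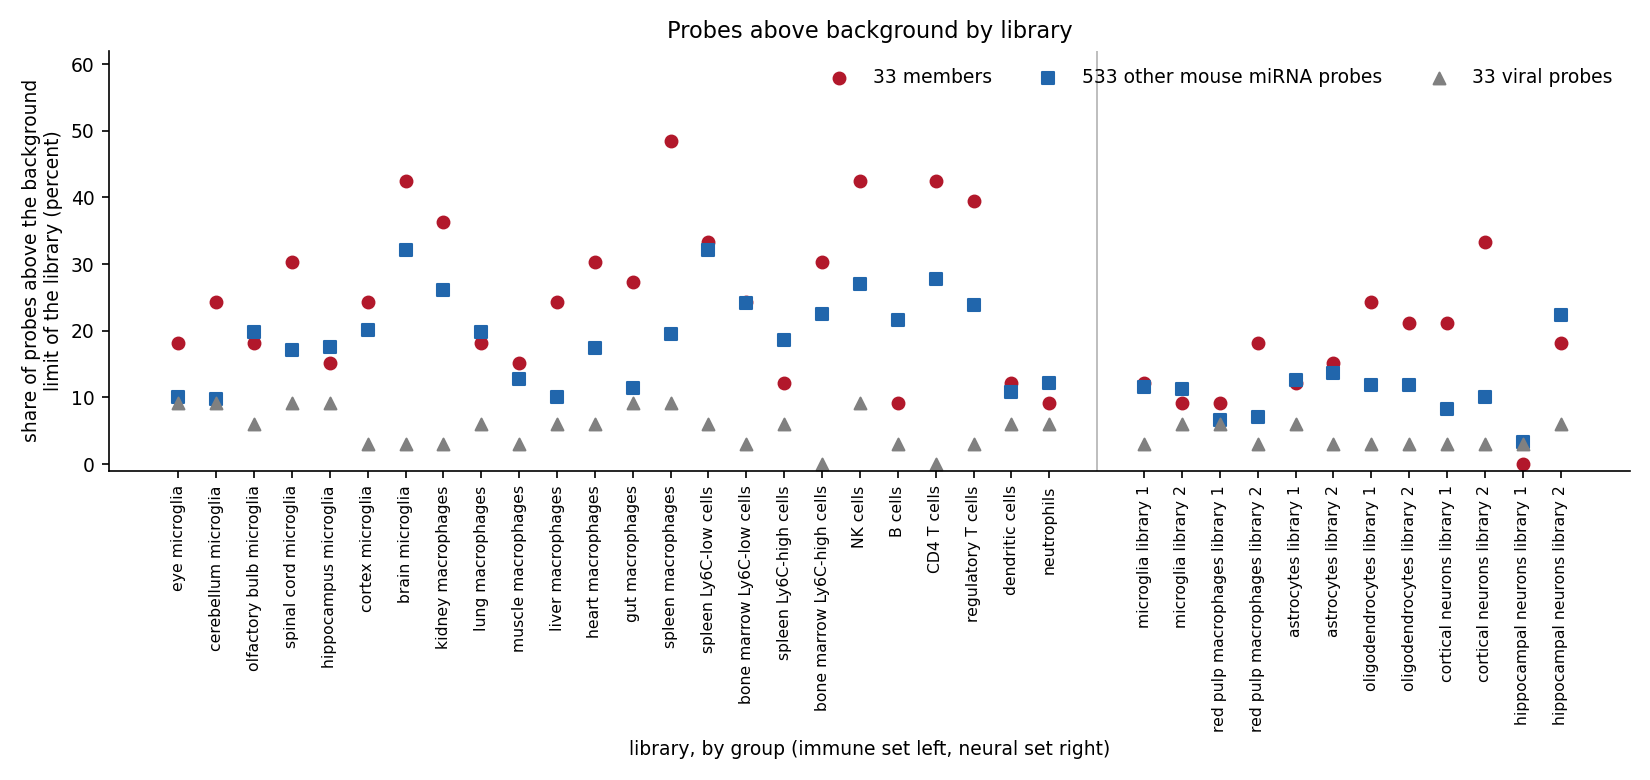
Share of probes above the background limit (mean plus 2 SD of the viral probes) in each library, in percent, for the 33 members (circles), the 533 other mouse miRNA probes (squares) and the 33 viral probes (triangles). The members reach 48.5% in spleen macrophages and 42.4% in brain microglia, NK cells and CD4 T cells, and stand at 0 in hippocampal neurons library 1.

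By cell group the members' share was 24.7% in microglia, 28.6% in macrophages, 25% in CD11b/Ly6C cells and 33.3% in lymphocytes. For the other mouse miRNAs it was 18.1% in microglia, 16.8% in macrophages, 24.3% in CD11b/Ly6C cells and 25.05% in lymphocytes, so the members' share in CD11b/Ly6C cells was close to that of all probes. In bulk samples of sorted cells, fewer cells of a type and less RNA per cell cannot be told apart. The range within lymphocytes alone was wider than that between groups: 3 of 33 members were above the limit in B cells, against 14 in NK cells, 14 in CD4 T cells and 13 in regulatory T cells. Of the other mouse miRNAs 21.6% were above it in B cells and 23.8% to 27.8% in the other 3 lymphocyte libraries. B cells were also the deepest library, at 75642 counts. Dendritic cells had 4 members above the limit and neutrophils 3, in libraries of 3703 and 2827 counts. In neural-set microglia 4 and 3 members were above the limit, in red pulp macrophages 3 and 6, in astrocytes 4 and 5, in oligodendrocytes 8 and 7, in cortical neurons 7 and 11, and in hippocampal neurons 0 and 6. As a share this was close to the other mouse miRNAs in microglia (10.6% of members, 11.4% of the others) and astrocytes (13.6% and 13.1%) and below them in hippocampal neurons (9.09% and 12.9%). It was above them in red pulp macrophages (13.6% and 6.85%), oligodendrocytes (22.7% and 11.8%) and cortical neurons (27.3% and 9.19%). The 11 stood in cortical neurons library 2, where the neuronal miRNAs named above lay under the limit; their part in that number was not tested.

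Comparator lists lay on either side of the members. Of 61 probes of the imprinted Dlk1-Dio3 cluster, another large imprinted miRNA cluster, 12.2% of immune and 9.02% of neural values were above the limit. For the 8 probes of the let-7 family, which is abundant in most differentiated cells, the shares were 95.8% and 74.0%. Above the limit in at least 50% of the libraries of a set were 6 of 33 members in the immune set and 6 in the neural set, against 14.3% and 8.63% of the other mouse miRNA probes and 0 of 33 viral probes in both. The Dlk1-Dio3 list had 4 and 5 of 61 such probes, and let-7 had 8 of 8 in both sets.

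The mean level of the members was low. Their mean over the mean of the viral probes had a median of 1.90 in the immune set and 1.34 in the neural set. A typical member stood lower and little above a probe with no target. The median of the members' own medians was 1.24 times the viral mean in the immune and 1.13 times in the neural set. In microglia the ratio of the means was 1.89 ± 0.37 (SD, n = 7), in macrophages 2.61 ± 1.39 (n = 7), in CD11b/Ly6C cells 1.99 ± 0.57 (n = 4) and in lymphocytes 2.77 ± 1.42 (n = 4). The microglia ratios ran from 1.46 in the eye to 2.55 in the brain library and overlapped the range of each other group. All ratios in the neural set lay between 1.07 in microglia library 2 and 1.84 in cortical neurons library 2. In whole counts the median member value was 3 in the immune set and 14.5 in the neural set, against medians of 2 and 11.5 for viral probes. A count of 1, the lowest recovered, made up 25.1% of member values, 34.9% of other mouse miRNA values and 42.3% of viral values in the immune set.

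**Figure D2:**
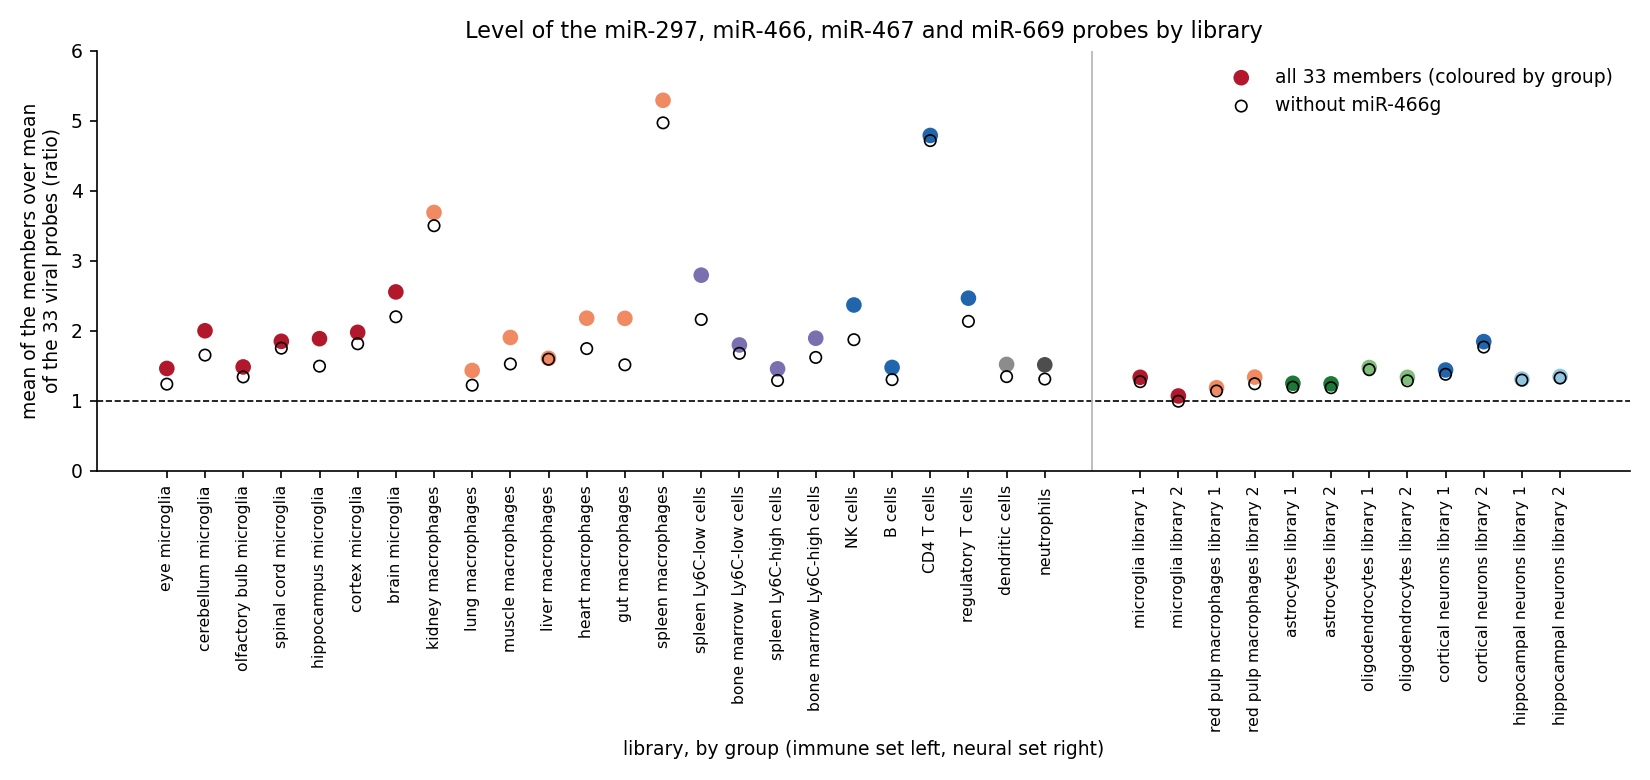
Mean of the 33 members over the mean of the 33 viral probes in each of 36 libraries (filled points, coloured by group), and the same without miR-466g (open circles). The dashed line marks equal means. Spleen macrophages (5.29), CD4 T cells (4.79) and kidney macrophages (3.69) stand above the other libraries, which reach at most 2.79.

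The level was carried by a few probes. miR-466g, whose single hairpin lies inside Sfmbt2, had the highest mean of all members in both sets. It was above the limit in 23 of 24 immune and 11 of 12 neural libraries, and its median was 9.19 times the viral mean in the immune set and 3.00 times in the neural set. By library it had 15.3, 55.8 and 141 as lowest, median and highest value in microglia, and 31.0, 66.9 and 338 in macrophages, the 338 in gut. It had 38.2 and 37.7 in Ly6C-low and Ly6C-high cells of spleen and 8.66 and 26.7 in those of bone marrow. Among lymphocytes it had 38.1 in NK cells, 8.53 in B cells, 13.2 in CD4 T cells and 31.2 in regulatory T cells. All 4 groups overlapped. In neural-set libraries miR-466g had 125 and 132 in microglia, 165 and 243 in red pulp macrophages, 86 and 114 in astrocytes and 106 and 113 in oligodendrocytes. It had 156 and 216 in cortical neurons and 141 and 58 in hippocampal neurons, the 141 lying under the high limit of that library. Without miR-466g the share of member values above the limit was 24.0% in the immune set and 13.8% in the neural set. miR-669h-5p was above the limit in 19 of 24 immune libraries and miR-467e in 18, followed by miR-467a (16), miR-669f (15) and miR-467c (13). In the neural set the order after miR-466g was the joint probe for miR-297a, miR-466f and miR-669b (9 of 12 libraries), miR-467a and miR-669j (8 each), miR-467c (7) and miR-669h-5p (6). The 4 probes on both lists were miR-466g, miR-467a, miR-467c and miR-669h-5p. Values of different probes cannot be read as numbers of molecules, since capture differs between probes.

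At the other end, 6 members were above the limit in none of the 36 libraries: miR-297b-3p, miR-297b-5p, miR-466d-5p, miR-466f-5p, miR-466i and miR-467d. In the immune set miR-297b-5p had the lowest mean, at 4.26, with 1 to 4 counts in every library. In the neural set miR-669m had the lowest mean, at 20.4, which was 0.447 times the viral mean in the median library. miR-669m was nevertheless above the limit once, in spleen macrophages, at 28.3 from 11 counts. The median over the libraries exceeded the viral mean for 20 of the 33 members in the immune set and for 18 in the neural set.

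The families differed in how often they were above background. Among single probes, miR-467 had the highest share in both sets, 37.5% in the immune and 23.8% in the neural set (7 probes). miR-669 followed with 28.2% and 13.9% (9 probes), then miR-466 with 18.3% and 11.7% (10 probes), of which miR-466g alone gave 23 of the 44 immune values. miR-297 had 9.72% and 11.1% (3 probes). The 4 joint probes, which can collect signal from several miRNAs, had 33.3% and 22.9%.

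Probes for hairpins inside Sfmbt2 were above background more often than those for hairpins elsewhere. The share was 29.7% of immune and 17.7% of neural values for the 25 probes of the cluster alone and 26.4% and 30.6% for the 3 probes of both places. It was 8.33% (10 of 120 values) in the immune set and 0 of 60 in the neural set for the 5 probes of other loci. Of those 10 values, 5 belonged to miR-467f and 3 to miR-466k, the pair printed above. Among the 28 probes with a hairpin in Sfmbt2, the number of hairpin genes behind a probe ran from 1 to 12. The number was weakly related to the median level over the viral probes across these 28 probes (Spearman rho 0.14 in the immune and 0.13 in the neural set, a description across probes that share libraries). miR-669a, with 12 hairpins, and miR-467a, with 10, had immune medians of 1.42 and 2.91 times the viral mean, and miR-466g, with 1, had the highest.

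The order of the probes was alike in the 2 sets. Across the 33 members the medians over the viral mean had r = 0.81 on the log2 scale (rho 0.77), and r = 0.77 without miR-466g. The 533 other mouse miRNAs gave r = 0.70 and the 33 viral probes, which have no target, r = 0.60. A stable order is thus also present among probes without a target. miR-669f ranked 6 by mean among the members in the immune set, where it was above the limit in 15 of 24 libraries. In the neural set it ranked 21 and was above the limit in 0 of 12.

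**Figure D3:**
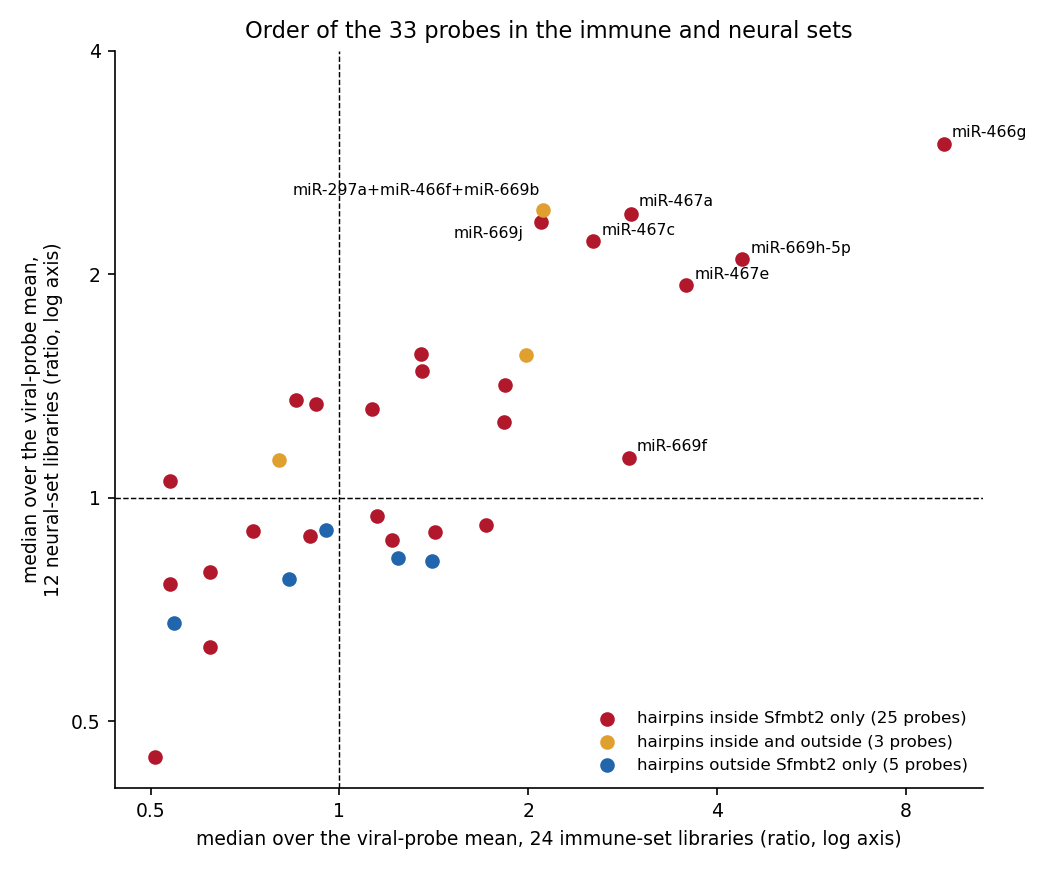
Median over the viral-probe mean for each of the 33 probes, in the 24 immune-set libraries (x axis) and the 12 neural-set libraries (y axis), both as ratios on log axes, coloured by where the hairpins lie. Dashed lines mark the viral mean. miR-466g lies apart at the upper right (9.19 and 3.00), and all 5 probes of hairpins outside Sfmbt2 lie under the viral mean in the neural set.

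Between cell groups the immune set gave few member differences. The test was limma on log2(value + 10), over all probes above 20 in at least 4 of the 22 libraries of groups with replicates, and a call was an adjusted p under 0.05. This left 132 mouse miRNAs, of which 12 were members, so 21 of 33 members were too low to test. A member that passed this minimum only through the group where it was high was favoured to differ, so counts of calls among the 12 say nothing about all 33. Without their macrophage libraries 8 of the 12 would not have passed it, miR-467e among them. The other 4 were miR-466g, miR-669f, miR-669h-5p and the joint probe for miR-466a-3p and miR-466b-3-3p. Log2 differences on this scale understate the change of low miRNAs.

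Against macrophages, 1 of 12 tested members was called, miR-467e, and it was lower in microglia (5.3% of all 132 tested miRNAs were called lower and 7.58% higher). miR-467e had 3.49, 15.0 and 38.5 as lowest, median and highest value in microglia, against 18.7, 38.4 and 85.3 in macrophages, and the ranges overlapped. The log2 difference was -0.94 ± 0.33 (SE), with an adjusted p of 0.0474 in limma. miR-467e was over 20 in 5 macrophage libraries, 2 of microglia and 1 of lymphocytes, and it thus entered the test through macrophages. With no minimum 0 members were called. Endothelial miR-126-3p also moved with this comparison, at 0.87 to 7.57 in microglia and 5.14 to 751 in macrophages, and its part in the result was not tested. Behind the miR-467e values stood 2 to 10 counts in microglia and 5 to 20 counts in macrophages. miR-467c (-0.88 ± 0.32, limma adjusted p = 0.062), miR-669h-5p (-0.83 ± 0.37, 0.15) and miR-467a (-0.69 ± 0.33, 0.18) did not pass. Over all 33 members the median log2 difference was -0.30, with 28 negative and 5 positive, and over the 33 viral probes it was -0.21, with 4 positive. Scaled to the viral probes, miR-467e gave -0.54 and an adjusted p of 0.37. Its call was lost without 1 of 14 of the 22 libraries: olfactory bulb, hippocampus, cortex or brain microglia, muscle, liver, gut or spleen macrophages, NK, B or regulatory T cells, or the Ly6C-low or Ly6C-high cells of spleen or the Ly6C-high cells of marrow. The adjusted p without each of the 22 ran from 0.0115 to 0.15. With the kidney and spleen macrophages left out together, as chosen after the values were seen, the difference was -0.92 and the adjusted p 0.0547.

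Against CD11b/Ly6C cells, 0 of 12 members passed in limma, with 1 (miR-669f) at an unadjusted p under 0.05 and 0 by edgeR on the recovered counts; 6.06% of the 132 tested miRNAs were called higher and 9.09% lower. miR-669f had 7.86, 15.2 and 47.1 as lowest, median and highest value in microglia. In CD11b/Ly6C cells it had 14.5 and 5.36 in Ly6C-low cells of spleen and marrow and 2.69 and 6.36 in the Ly6C-high cells (log2 difference 0.83 ± 0.41, adjusted p = 0.18). The ranges overlapped. All 33 members had a positive log2 difference (median 0.35), as did 32 of 33 viral probes (median 0.36).

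Against lymphocytes, 1 of 12 members was called, miR-669h-5p, higher in microglia (12.1% of the 132 tested miRNAs were called higher and 9.85% lower). miR-669h-5p had 4.81, 30.3 and 47.1 as lowest, median and highest value in microglia. It had 6.35 in NK cells, 2.68 in B cells, 2.48 in CD4 T cells and 11.0 in regulatory T cells. Of the microglia sites only the brain, at 4.81, lay inside the lymphocyte range, and the log2 difference was 1.17 ± 0.43 (adjusted p = 0.044 in limma). In whole counts the groups were alike, at 6 to 14 counts in microglia and 6 to 12 counts in lymphocytes. The value of 1 count had a median of 3.78 in microglia and 0.66 in lymphocytes. The median log2 difference was 0.38 over the 33 members and 0.41 over the 33 viral probes, all 33 of which were positive. Scaled to the viral probes, miR-669h-5p gave 0.42 and an adjusted p of 0.52. Its call was lost without 1 of 10 of the 22 libraries: any of the 4 lymphocyte libraries, eye, cerebellum, olfactory bulb or spinal cord microglia, or the Ly6C-low cells of spleen or the Ly6C-high cells of marrow (adjusted p 0.0146 to 0.14 over all 22).

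Over the 4 immune groups together the F test called 8 of 12 tested members, beside 65.2% of all 132 tested miRNAs. The 8 were miR-466g, miR-466h, miR-467a, miR-467c, miR-467e, miR-669h-5p, miR-669j and the joint probe for miR-297a, miR-466f and miR-669b, with adjusted p from 0.0011 to 0.0272. Of these 8, all but miR-466g and miR-669h-5p passed the minimum only with their macrophage libraries. Mean values fell in 1 order for 7 of the 8: macrophages, microglia, CD11b/Ly6C cells, lymphocytes. miR-669h-5p averaged 27.8 ± 16.3 in microglia, 61.2 ± 42.9 in macrophages, 15.0 ± 12.5 in CD11b/Ly6C cells and 5.63 ± 4.00 in lymphocytes (SD, n = 7, 7, 4 and 4). miR-466g averaged 62.3 ± 49.6 in microglia, 118 ± 112 in macrophages, 27.8 ± 13.8 in CD11b/Ly6C cells and 22.8 ± 14.1 in lymphocytes. miR-467e departed from that order, at 6.09 in CD11b/Ly6C cells and 10.6 in lymphocytes.

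The viral probes fell in that order as well. Their mean value was 6.75 ± 4.66 in microglia, 9.28 ± 5.49 in macrophages, 2.81 ± 1.87 in CD11b/Ly6C cells and 1.89 ± 0.50 in lymphocytes. Among single probes, 21 of 33 members and 21 of 33 viral probes had group means in that order. Fitted together with the tested miRNAs, 6 of the 33 viral probes were called by the F test, and 12 had an unadjusted p under 0.05. Scaled to the viral probes, 0 of the 12 members were called (0 at an unadjusted p under 0.05) while 50 of the 132 miRNAs were. miR-466g then averaged 9.77 times the viral mean in microglia, 12.7 in macrophages, 11.5 in CD11b/Ly6C cells and 11.4 in lymphocytes.

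**Figure D4:**
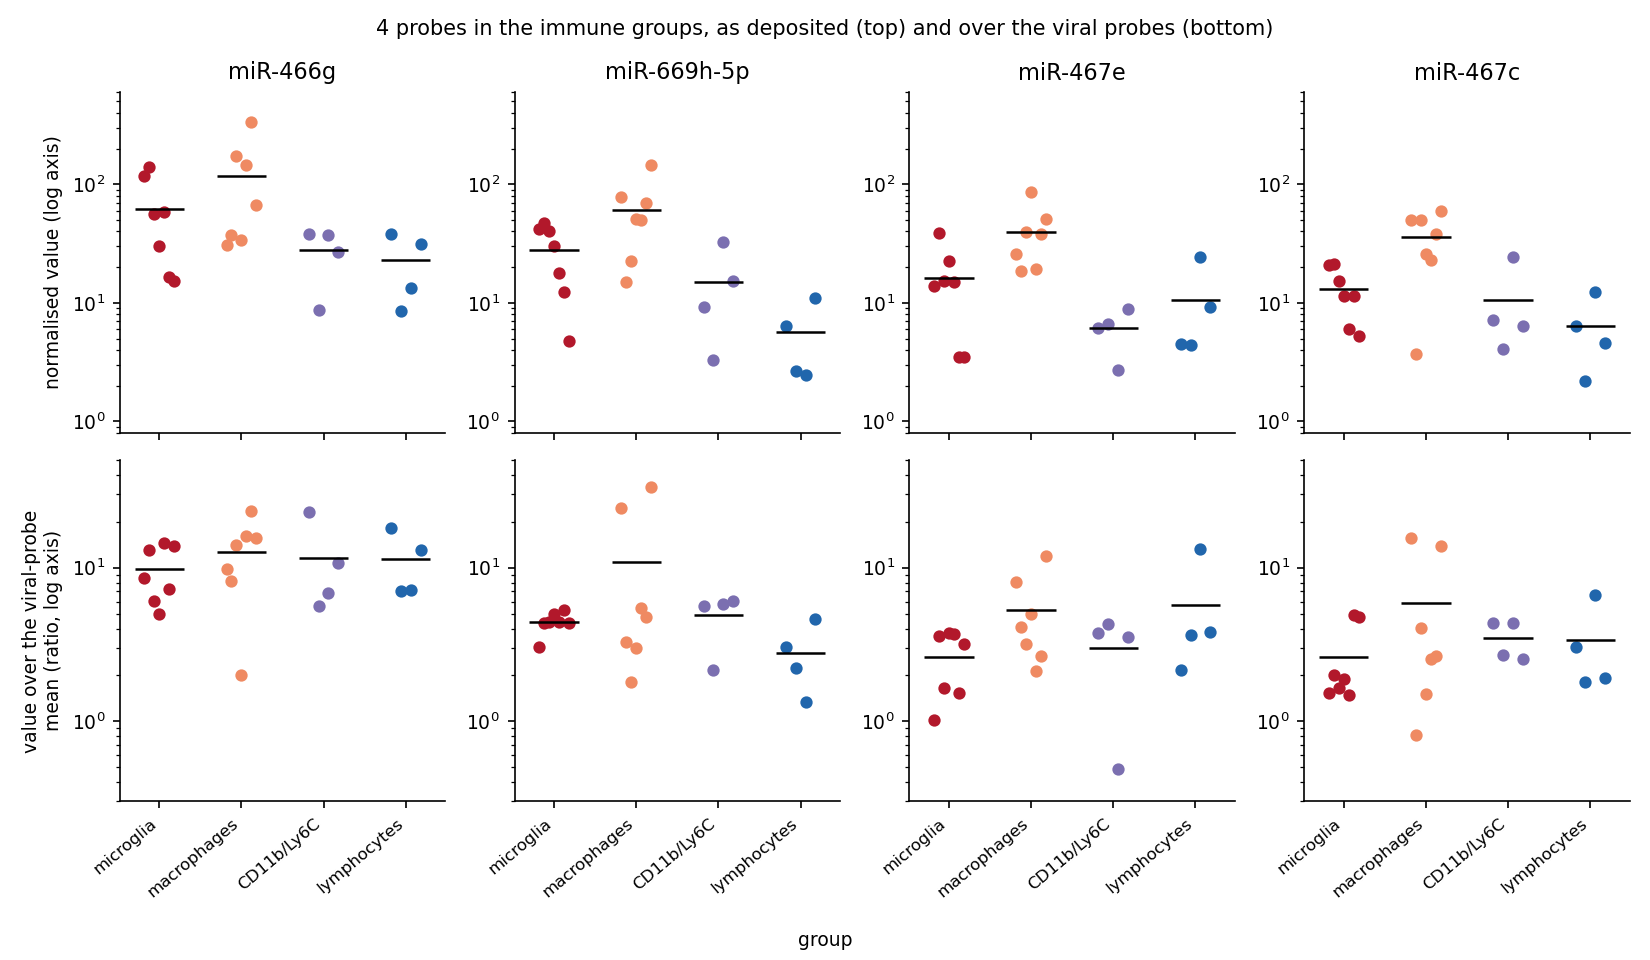
miR-466g, miR-669h-5p, miR-467e and miR-467c in the 4 immune groups with replicates, as deposited values (top, log axis) and as ratios to the viral-probe mean of the library (bottom, log axis). Points are libraries and bars are group means. As ratios the groups overlap for all 4 probes, and kidney and spleen macrophages stand above the other macrophages for miR-669h-5p (24.4 and 33.6) and miR-467c (15.7 and 13.8).

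Single libraries stood apart more than groups did. Each has no repeat, so what follows is a description of those libraries, and members beyond the naming rule in it were chosen after their values were seen. Measured over the viral mean, 9 of 33 members were highest in CD4 T cells and 9 in spleen macrophages, and the other members were spread over 11 libraries. In spleen macrophages 16 members were above the limit, and 12 of these were also all of the 12 above it in kidney macrophages.

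Measured over the viral mean, kidney and spleen macrophages shared high members. miR-669h-5p was highest of all probes of the families in both, with 77.4 (45 counts) in kidney and 144 (56 counts) in spleen macrophages. The other 5 macrophage libraries had 14.9 to 69.1 for it, from 4 to 13 counts. As ratios to the viral mean, miR-467c was 15.7 and 13.8 in kidney and spleen macrophages, against 0.82 to 4.07 in the other macrophages, and miR-467a was 8.66 and 11.4, against 0.82 to 5.08. miR-669o was 7.04 and 12.0, against 0.45 to 1.69, and miR-466k, printed above and named for a hairpin on chromosome 3, was 4.87 and 14.4, against 0.53 to 2.04. In deposited values the other macrophages overlapped these libraries for miR-467a, at 27.5 in kidney and 48.9 in spleen, against 68.3 in liver and 45.9 in heart. They also reached the kidney library for miR-467c (49.9, against 50.4 in muscle) and for miR-466k (15.5, against 17.1 in liver). miR-466l, known in the mouse for binding the Il10 transcript, was 33.4 in spleen and 42.7 in liver macrophages. Across the 33 members the log2 ratios of these 2 libraries had r = 0.85, the highest of all 276 pairs of immune libraries, whose median was 0.51; without miR-466g it was 0.84. Spleen macrophages in the immune set and red pulp macrophages in the neural set come from the same organ, but in red pulp macrophages miR-669h-5p was 96 and 129, on either side of the limits of 113.

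CD4 T cells had other members at the top. Of the 14 members above the limit there, 9 were also above it in spleen macrophages and 9 in kidney macrophages. The highest were miR-467f with 39.7 (96 counts), the joint probe for miR-466a-3p and miR-466b-3-3p with 38.4 (93 counts) and miR-669f with 38.0 (92 counts). miR-669a, known in the mouse for repressing the muscle factor MyoD, followed with 25.2 (61 counts), then miR-467e with 24.4 (59 counts). miR-467b, reported in the mouse to target lipoprotein lipase, had 17.8 (43 counts). All 14 members above the limit there also exceeded the highest viral probe. B cells, the only lymphocytes with more counts in all, had 11 counts of miR-467f, 6 of the joint miR-466a-3p probe, 7 of miR-669f and 11 of miR-669a. miR-669h-5p, the highest probe in kidney and spleen macrophages, had 6 counts in CD4 T cells, or 1.34 times the viral mean.

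These members had lower values in regulatory T cells. miR-467f was 18.4 (20 counts), miR-669f 14.7 (16 counts), the joint miR-466a-3p probe 13.8 (15 counts) and miR-669a 11.9 (13 counts). miR-466g, the highest member there, was 31.2, above its 13.2 in CD4 T cells, and miR-669h-5p was 11.0, against 2.48 in CD4 T cells. NK cells had 18 counts of miR-467f and 3 to 7 of the others. Across the 33 members CD4 T cells had r = 0.77 with regulatory T cells, 0.71 with NK cells and 0.68 with B cells, and 0.38 with spleen and 0.51 with kidney macrophages. miR-467f, whose sequence is printed above and whose hairpin lies on chromosome 11, outside the cluster, was 21.4 times the viral mean in CD4 T cells. Its next ratios were 7.81 in NK cells and 7.67 in regulatory T cells.

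Among microglia the brain library had the most members above the limit, 14 of 33, against 5 to 10 at the other sites, and also the most counts. Of the other mouse miRNAs 32.1% were above the limit there, against 9.76% to 20.1% at the other sites, so the high number was not one of the members alone. miR-466g was its highest member with 15.3 (35 counts), and miR-669f followed with 9.62 (22 counts). miR-297c had 17 counts there, or 6.76 times the viral mean, the highest ratio of that probe in the immune set. miR-669h-5p lay, across the 7 sites, between 3.05 and 5.31 times the viral mean and above the limit at all 7.

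**Figure D5:**
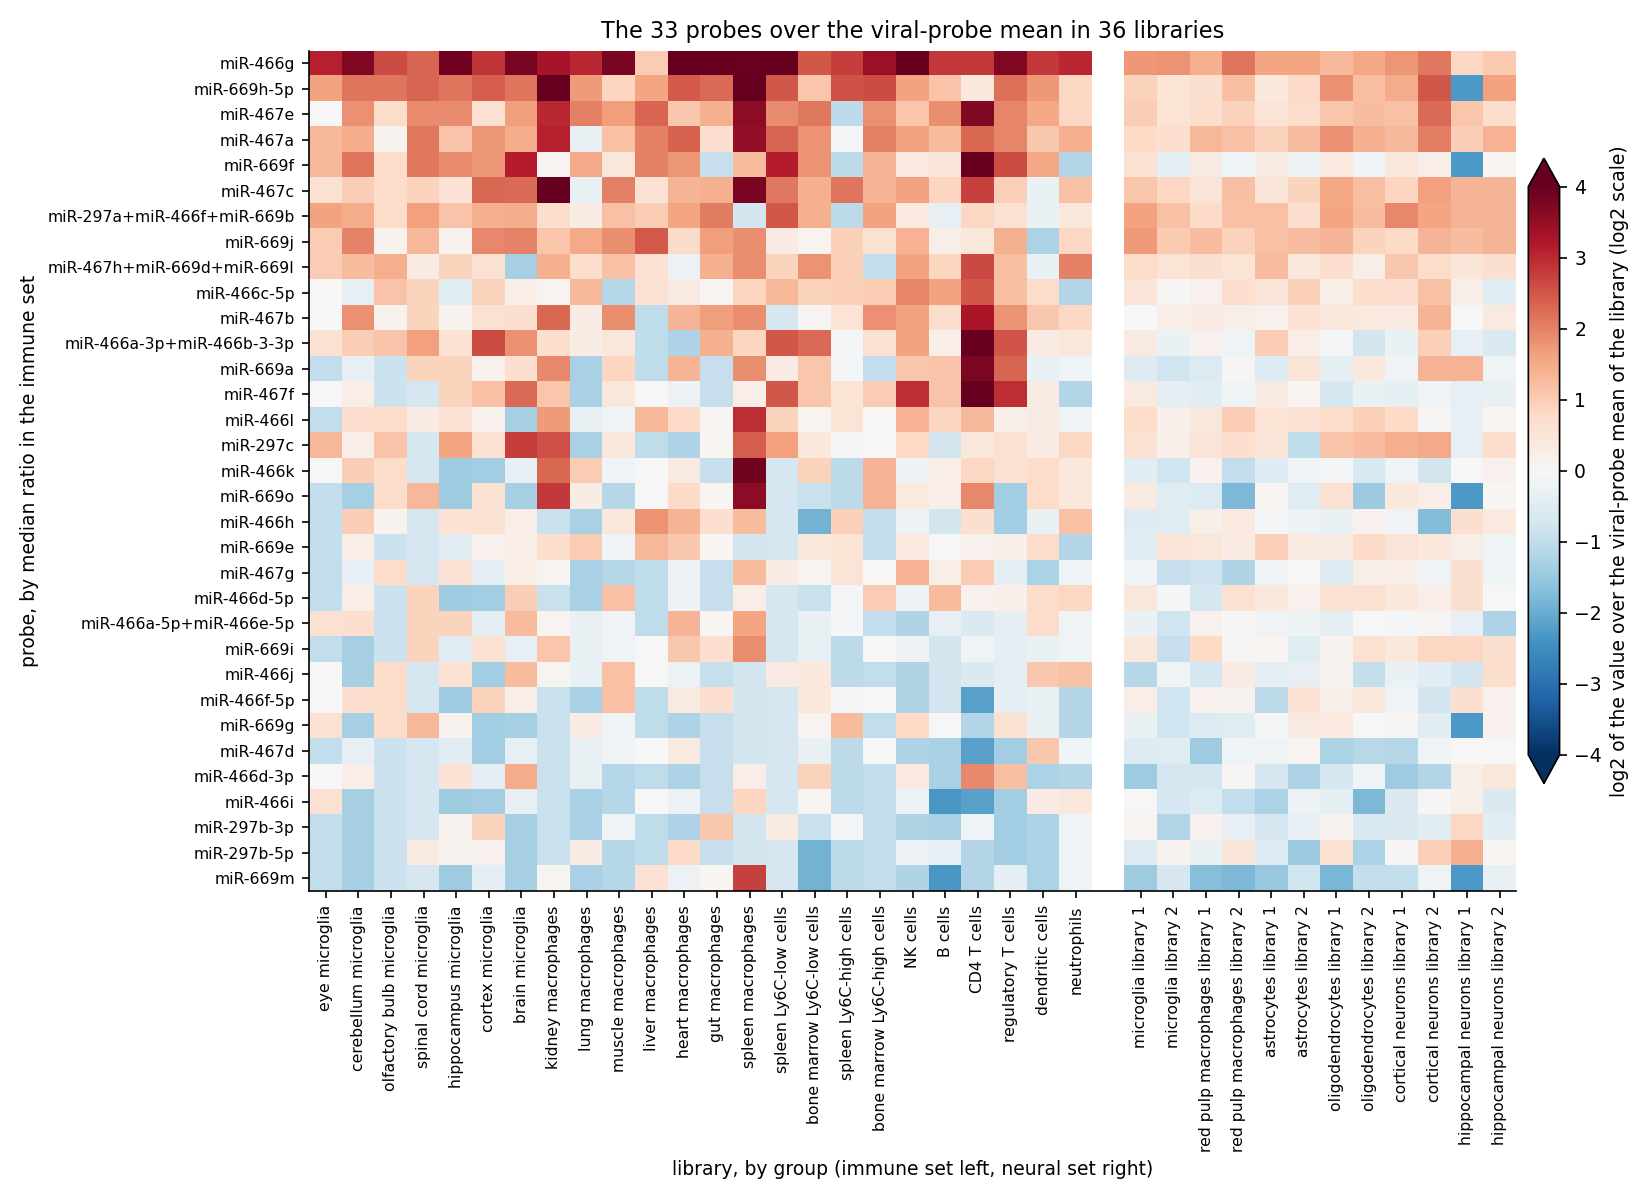
Log2 of the value over the viral-probe mean for the 33 probes (rows, ordered by immune-set median) in 36 libraries (columns, by group). Kidney and spleen macrophages are high in miR-669h-5p, miR-467c, miR-467a, miR-466k and miR-669o, CD4 T cells in miR-467f, miR-669f, miR-669a and the joint miR-466a-3p probe, and the neural set shows little contrast between libraries.

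In the neural set no member difference passed in limma. All 33 members were above 20 in at least 2 of 12 libraries and were tested among 566 miRNAs. For microglia against the 4 neural cell types, 0 of 33 members were called, and 0 had an unadjusted p under 0.05 (1.77% of all 566 were called higher and 0.177% lower). Against red pulp macrophages 0 of 33 were called and 2 had an unadjusted p under 0.05 (1.77% higher and 0% lower). Over the 6 groups 0 of 33 were called, and 3 had an unadjusted p under 0.05 (3.36% of all 566). The lowest adjusted p of a member was 0.98, 0.59 and 0.18 in these tests, the last for miR-297c.

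Against red pulp macrophages both microglia values lay below both others for 22 of 33 members, beside 56.9% of all 566 mouse miRNAs. The viral probes gave a median log2 difference of -0.47, and the members one of -0.65. miR-466h, linked to cell death in mouse cells, was 26 and 27 in microglia, against 73 and 73 in red pulp macrophages (log2 difference -1.19 ± 0.53, limma adjusted p = 0.59). miR-467a was 65 and 61 in microglia, against 154 and 125 in red pulp macrophages (log2 difference -1.03 ± 0.53, limma adjusted p = 0.60). Over the viral mean the members averaged 1.34 and 1.07 in microglia and 1.19 and 1.34 in red pulp macrophages, so the ranges overlapped on that scale.

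Across the neural cell types miR-669h-5p had 71 and 56 in microglia. It had 38 and 65 in astrocytes, 151 and 88 in oligodendrocytes, 128 and 276 in cortical neurons and 16 and 86 in hippocampal neurons. The F test over the 6 groups gave it an adjusted p of 0.29. miR-297c had 57 and 44 in microglia, 88 and 89 in red pulp macrophages, 40 and 19 in astrocytes, 95 and 90 in oligodendrocytes, 125 and 141 in cortical neurons and 63 and 46 in hippocampal neurons. The absence of member calls in that F test did not hold without hippocampal neurons library 1, which held 3699 counts, nor without library 2. Either fit left 1 library for hippocampal neurons, the shallow one when library 2 was left out. The calls of either fit are therefore no result here and stand only in the range over the alternatives below. The share called over all tested miRNAs in these fits is not given, so they say nothing about the members in particular.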

How the data were processed

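Total RNA came from the mirVana kit (extract protocol, per the labels), and miRNAs were counted with the nCounter mouse miRNA panel. The immune-set values deposited by the authors are a normalised signal, counts times 1 factor per library; 100% of low values were whole counts within 0.1. The neural-set values deposited by the authors are scores, scaled counts rounded to whole numbers. The basis of each factor is unknown here. Recovered counts served for depth and for edgeR.

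Tests used limma 3.58.1 (eBayes with a trend, Benjamini-Hochberg adjustment) on log2(value + 10), 1 fit per set; edgeR 4.0.16 was an alternative. On simulated data limma recovered 93.5% of 4-fold changes between microglia and macrophages among 132 probes, and 86.9% between neural-set microglia and 4 neural cell types among 566. The 132 probes had passed the minimum, so the 93.5% does not cover the members too low to test. On log2(value + 10) a 4-fold change of a low miRNA is also smaller, so these shares do not give the power for low members. Other settings were other pseudocounts, minimums, scalings and left-out libraries. The members, lists and tests were chosen with earlier results of these data known. Named with values are members called in any test, the 8 highest means of each set, those above background in at least 50% of a set's libraries and the lowest mean of each set. All replicate pairs differed by chi-square (closest p = 0.0147, red pulp macrophages). The labels do not say that the same library numbers in the neural set pair samples. Deviations of same-numbered libraries correlated at -0.25 to 0.08, which cannot exclude a shared animal or batch. The gene panel and array samples of the series were not analysed here.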

Additional observations from a re-analysis of the deposited data

Results flagged for a closer look

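In 52 checks of a named member or of the members' mean over the viral mean within a group of 4 or 7 libraries, 5 values, in 3 libraries, stood farther from the rest of their group than Dixon's 95% value allows. Chance alone flags about 1 in 20 such groups. miR-466h stood at 59.7 (7 counts) in liver macrophages, with the next macrophage library at 23.0, and at 10.8 (4 counts) in spleen Ly6C-high cells, with the next at 1.27. miR-669f stood at 68.3 (8 counts) in liver macrophages, with the next at 30.6. miR-467c stood at 24.2 (9 counts) in spleen Ly6C-high cells, with the next at 7.22. miR-297b-5p stood at 1.81 (2 counts) in NK cells, with the next at 0.97. Liver macrophages and spleen Ly6C-high cells had the fewest counts of their groups (1741 and 5283), and 1 count there stood for 8.53 and 2.69.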

How the results depend on the processing

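The calls of single members in microglia against 1 other group were fragile. The count of the F test over the 4 immune groups stayed within 1.5 times of 8 in 24 of 32 alternatives. Of these 24, 19 left out 1 library and kept the minimum. Since 6 of the 8 members had passed that minimum only with their macrophage libraries, such stability is no support for the calls. In that F test miR-467c, miR-467e, miR-669h-5p and miR-669j were called in 29 of 30 alternatives that tested them, the exception being the scaling to the viral probes, and miR-467a in 28 of 30. All of these but miR-669h-5p passed the minimum only with their macrophage libraries, so these counts are no support for their calls either. Scaled to the viral probes, 0 members were called in every comparison, in place of 1 against macrophages, 1 against lymphocytes and 8 over the 4 immune groups. Without libraries under 5000 counts these 3 counts were also 0, with 1 member left high enough to test. In the neural set this left hippocampal neurons with 1 library, and the absence of member calls in the F test did not hold. A pseudocount of 1 gave 0 against macrophages and 2 against lymphocytes, and a pseudocount of 50 gave 0 against lymphocytes. No minimum gave 0 and 0 in these 2 comparisons and 20 in the immune F test; a minimum of 100 gave 0, 0 and 1, and 1 in the neural F test. Scaling to the 100 highest miRNAs gave 2 against macrophages and 0 against lymphocytes, and edgeR gave 0 against lymphocytes and 5 in the immune F test. Its 1 call against macrophages was miR-467c and not miR-467e. Without kidney and spleen macrophages, 0 were called against macrophages and 2 against lymphocytes; without CD4 T cells as well, 0 and 0. Both were chosen after seeing the data. Leaving out 1 library gave 0 to 4 calls against macrophages (4 without lung), 0 to 2 against lymphocytes, 5 to 9 in the immune F test (5 without B cells, muscle or gut), 0 to 1 in both neural contrasts and 0 to 16 in the neural F test (8 and 16 without hippocampal neurons library 1 and 2). Adjusted p over the alternatives was 0.0115 to 0.37 for miR-467e against macrophages and 0.0146 to 0.52 for miR-669h-5p against lymphocytes. The cause of these changes was not tested. Calls under these alternatives are given without the share called over all tested miRNAs, so their counts say nothing about the members in particular. The neural F tests without a hippocampal neurons library left that group with 1 library, so their counts are no result about the members. With the library number as a replicate block, the neural tests called 0, 0 and 0 members. The share of member values above background stayed above that of other mouse miRNAs: 19.1% against 14.6% in the immune and 9.09% against 7.13% in the neural set at the mean plus 3 SD of the viral probes, and 18.4% against 14.4% and 11.1% against 8.24% at the highest viral probe. Low counts limit all of this: a median of 3 per member value in the immune set.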
